A study of Mus musculus with 27 samples.

Results

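Gene expression in lobular zone 3 of the maternal mouse liver was compared between day 16 and day 8 post coitum (dpc16 and dpc8). All genes with an FPKM (fragments scaled to the length of the transcript and to all mapped fragments of the library) of at least 1 in 3 or more of the 6 libraries were taken, which gave 10954 of the 21823 genes in the table. Of these, 9577 reached 1 FPKM in all 6 libraries. A further 55 genes passed only through the dpc16 libraries and 42 only through the dpc8 libraries, so that these genes had to differ between the groups. Of the genes named below, Gpx3, Dpf1, Nptx1, Pnliprp1, Slc22a2 and Rdh1 are among the former, and C9, Smim22 and Cyp2c55 among the latter. Sh3d21 lay just inside the limit, where the third highest of the 6 values was 1.0007 FPKM, and Iqcg just outside, with 0.998.

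All mice were wild-type (WT) female C57BL/6, untreated, and virgin before mating, and the methods name the substrain C57BL/6N. Zones 1, 2 and 3 were cut from frozen liver sections of non-pregnant (NP), dpc8 and dpc16 mice by laser microdissection, in which a laser separates an area of tissue for collection. RNA from each area was sequenced after removal of ribosomal RNA, with 3 libraries for each of the 9 combinations of stage and zone. The methods state in general that different mice were used, but not which mouse gave which library, so that p-values measure the spread between these libraries, which may be partly technical.

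The liver lobule is organised along the blood flow from the portal vein to the central vein, and zone 3 is by convention the area around the central vein. Pericentral hepatocytes synthesise glutamine, break down foreign compounds and produce bile acids, whereas the urea cycle, amino acid breakdown and gluconeogenesis lie mainly on the portal side. During pregnancy the liver is exposed to prolactin, placental lactogens, oestrogens and glucocorticoids, and hepatocytes carry receptors for each of these groups of hormones.

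The values went with the zone labels. Glul (glutamine synthetase), the defining pericentral gene, was between 1349 and 3152 FPKM in the zone 3 libraries at dpc16 and between 2042 and 2697 at dpc8, against 113 to 145 and 25.7 to 74.4 in zone 1. Cyp2f2, a periportal cytochrome P450, was between 0.764 and 3.06 FPKM in zone 3 at dpc16 and between 9.24 and 19.98 at dpc8, against 574 to 1467 and 565 to 1296 in zone 1.

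Replicate 3 of dpc16 stood apart from the other dpc16 and dpc8 libraries of zone 3. The summed FPKM of 4 Y-linked genes (Ddx3y, Eif2s3y, Kdm5d and Uty) was 16.6 in this library and at most 0.372 in the other 5, although the mice were female. Its summed FPKM over 15 genes of matrix and smooth muscle, such as Col1a1 and Tagln, was 2984, against 162 to 283 in the others. The biliary list reached 92.2 FPKM there and at most 5.68 in the other 5. The correlation of log2 values between this library and the other dpc16 libraries was 0.870 and 0.869, while other pairs within a group had 0.951 to 0.970. Results are therefore given with this library, and values without it are added for lost calls and for list medians that moved by over 1.5 times or turned in sign. In its absence the lone pair at dpc16 still shared the estimate of the spread with all groups. Among the libraries used for comparison, NP zone 3 replicate 2 had a Y-linked sum of 7.92 and a matrix and smooth muscle sum of 1097 FPKM, and dpc16 zone 2 replicate 3, dpc8 zone 1 replicate 1 and dpc8 zone 2 replicate 2 had Y-linked sums of 16.1 to 23.2 and matrix and smooth muscle sums of 3547 to 5240. The part of these extra RNAs in the results was not tested.

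**Figure D1:**
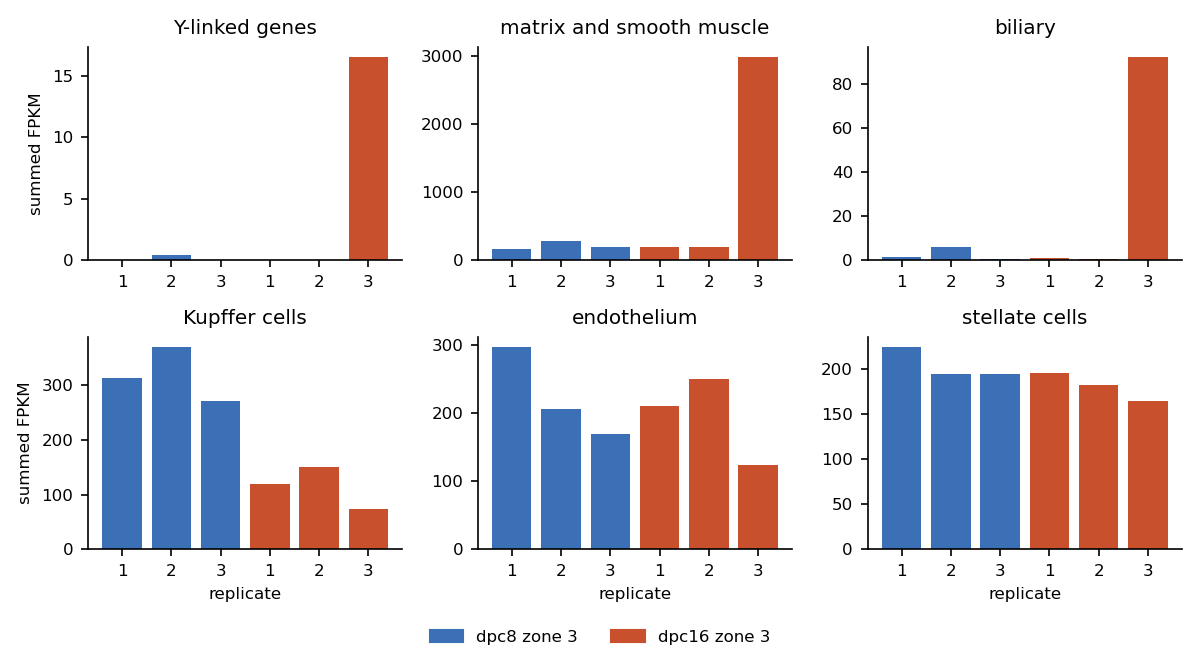
Summed FPKM of Y-linked genes and of 5 cell type lists in each zone 3 library (bars, FPKM on a linear axis from 0; blue dpc8, red dpc16). Replicate 3 of dpc16 has the highest sums for Y-linked genes (16.6), matrix and smooth muscle (2984) and biliary genes (92.2), and all 3 dpc16 bars for Kupffer cells lie under the dpc8 bars.

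Estimated from the steps between low FPKM values, the depth of the 6 libraries was 13.5 to 23.04 M reads (M, 1e6). This is the depth on the scale that set the FPKM, which may differ from the reads mapped. A single read on a transcript of 1 kilobase was worth 0.0434 to 0.0742 FPKM. The share of all FPKM taken by Alb, the serum albumin gene and the most abundant transcript, was 16.5%, 15.2% and 9.59% at dpc16 and 4.39%, 4.36% and 4.20% at dpc8. FPKM is a relative unit, and the effect of this gain of Alb on the counts is given below.

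A limited set of genes changed in zone 3. With limma on log2(FPKM + 1) and Benjamini-Hochberg adjustment, 89 genes were higher at dpc16 than at dpc8 (0.812% of the genes tested) and 118 were lower (1.08%), and 1553 genes (14.2%) had an unadjusted p under 0.05. The 3 values of each group lay apart in all of the 207 genes, as they did in 11.9% (higher) and 13.5% (lower) of all genes tested. The median log2 fold change was 1.88 among the higher genes and -1.73 among the lower genes, beside 0.02 over all genes. On the log2(FPKM + 1) scale the change of weakly expressed genes is understated, and 26 of the higher genes had a mean under 1 FPKM at dpc8.

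The excess of lower over higher genes did not hold for all choices of libraries. Without dpc16 replicate 3, 83 genes were higher (0.758%) and 70 lower (0.639%). Without the libraries with Y-linked RNA in any group, the counts were nearly equal, 260 (2.37%) and 261 (2.38%). Higher genes also outnumbered lower ones without dpc8 replicate 1 (59 against 55) and without dpc8 replicate 3 (47 against 38). Of the 207 genes, 69 higher and 57 lower ones passed again without dpc16 replicate 3, and all kept their direction. Among the genes named below, the calls of Akr1c19, Aqp8, C1qa, Cd5l, Clec4f, Cyp2f2, Gls2, Gstt1, Manf, Orm3, Pigr, Psmb8, Serpinb1a, Slc10a1, Smim22 and Tapbp were lost in this fit, with limma adjusted p-values of 0.0501 (Cd5l, Serpinb1a and Smim22) to 0.192 (Pigr). When every FPKM value was instead divided by the library's sum without Alb, a scaling chosen after seeing the data, 100 genes were higher and 365 lower. That scaling moved the median of all genes from 0.02 to -0.07. Over 17 other fits, 6 of them without 1 library each, 34 of the higher and 25 of the lower genes passed in all.

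**Figure D2:**
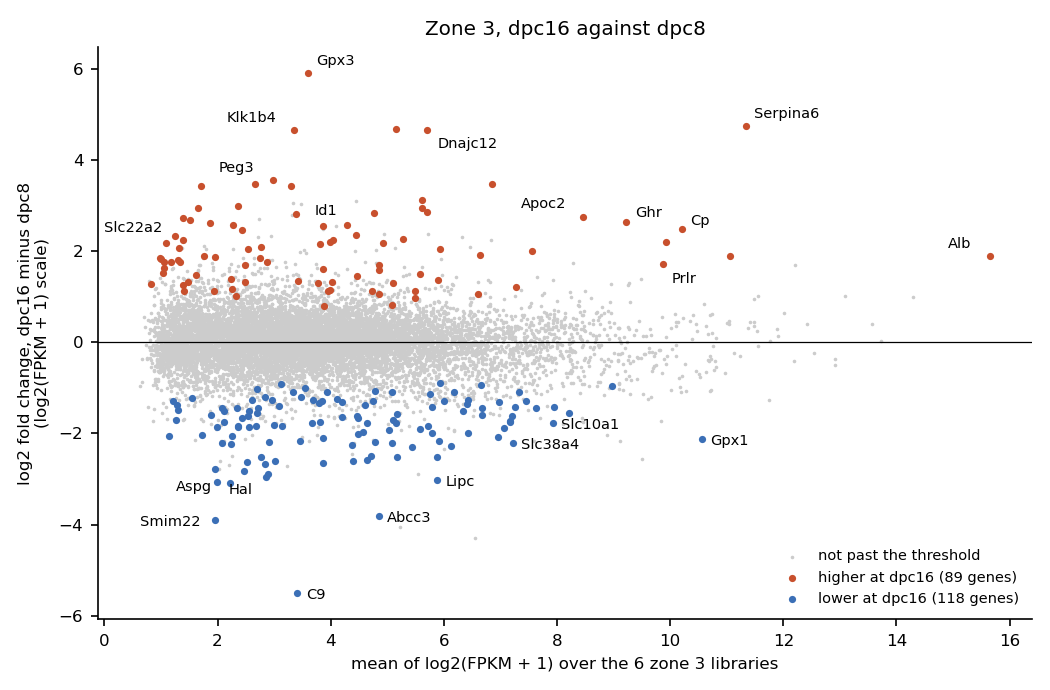
Log2 fold change of dpc16 minus dpc8 (y axis, log2(FPKM + 1) scale) against the mean of log2(FPKM + 1) over the 6 zone 3 libraries (x axis), 1 point per gene. Red points are the 89 genes higher at dpc16 and blue points the 118 lower genes, and Gpx3 (5.90) and C9 (-5.50) are the extremes.

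The largest change was that of Gpx3 (ENSMUSG00000018339.11, chromosome 11, 54902453 to 54910377), which encodes the secreted plasma glutathione peroxidase. Its FPKM was 92.4, 90.3 and 93.7 at dpc16 and 0.388, 0.773 and 0.536 at dpc8, with 1.25, 3.22 and 0.605 in NP mice. The dpc16 values were almost level and lay far above both other groups. The fold of the means was 163 and the log2 fold change 5.90 ± 0.59 (SE, limma adjusted p = 2.68e-06). Gpx3 passed the filter only through dpc16, so that a difference was required, and the fold rests on dpc8 values under 1 FPKM. An intracellular enzyme of the same family went the other way. Gpx1, named after its values were seen, was 836, 783 and 579 FPKM at dpc16 and 3404, 3310 and 2726 at dpc8. It was thus 4.30-fold lower, with no overlap and a limma adjusted p of 0.000431. Gpx4, which reduces lipid peroxides in membranes, had a log2 fold change of -0.50 and did not pass (adjusted p = 0.310).

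Serpina6 (ENSMUSG00000060807.7, chromosome 12, 103646630 to 103657212) encodes corticosteroid-binding globulin, the plasma carrier of glucocorticoids and progesterone. It rose from 649, 421 and 457 FPKM at dpc8 to 15930, 13795 and 10775 at dpc16, and NP libraries had 728, 294 and 680. The dpc16 values thus lay far above those of both other groups, which overlapped each other. The log2 fold change was 4.73 ± 0.49 (SE, limma adjusted p = 3.86e-06). Serpina6 was the steroid metabolism gene with the largest change. In that list of 18 measured genes, Akr1c19, a hydroxysteroid dehydrogenase, fell by 1.93 on the log2 scale. Its call was lost in all 6 fits that left out 1 library (limma adjusted p = 0.0715 without dpc16 replicate 3). The other 16 genes did not pass, among them Hsd11b1 (1.11), which regenerates active glucocorticoid, and the glucocorticoid receptor Nr3c1 (-0.42). The shares over all genes were 0.812% higher and 1.08% lower. The median of the list was -0.39.

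Dnajc12, a J-domain co-chaperone of the aromatic amino acid hydroxylases, had 273, 438 and 148 FPKM at dpc16 against 11.4, 10.8 and 6.56 at dpc8. Klk1b4, a member of the tissue kallikrein family, had 51.3, 46.3 and 52.1 FPKM against 0.942, 0.444 and 1.99. Peg3, an imprinted zinc finger gene expressed from the paternal allele, had 25.0, 16.1 and 43.1 FPKM against 0.296, 2.51 and 1.65. All of these groups lay apart, and the log2 fold changes were 4.66, 4.64 and 3.56. Klk1b4 has close relatives with which it may share reads, which makes its values uncertain.

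The other genes with the largest rises were of several kinds. They included the transporters Slc16a6 (3.48), a monocarboxylate carrier, and Slc41a2 (2.93), a magnesium carrier, the sulfotransferase Sult3a2 (3.48), the fatty acid hydroxylase Cyp4a31 (2.86), the adhesion docking protein Nedd9 (3.43), the neuronal pentraxin Nptx1 (2.94), and Tmem64 (3.13) and Hsbp1l1 (2.99). Dpf1, a subunit of neuronal chromatin remodelling complexes, was listed at 0 in the 3 dpc8 libraries and had 17.04, 7.69 and 6.96 FPKM at dpc16. Sult3a2 and Cyp4a31 belong to families of similar genes, and Slc16a6 overlaps exons of Arsg, which also rose (2.57). Cyp4a31 passed in 1 and Slc41a2 in 2 of the 6 fits that left out 1 library.

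**Figure D3:**
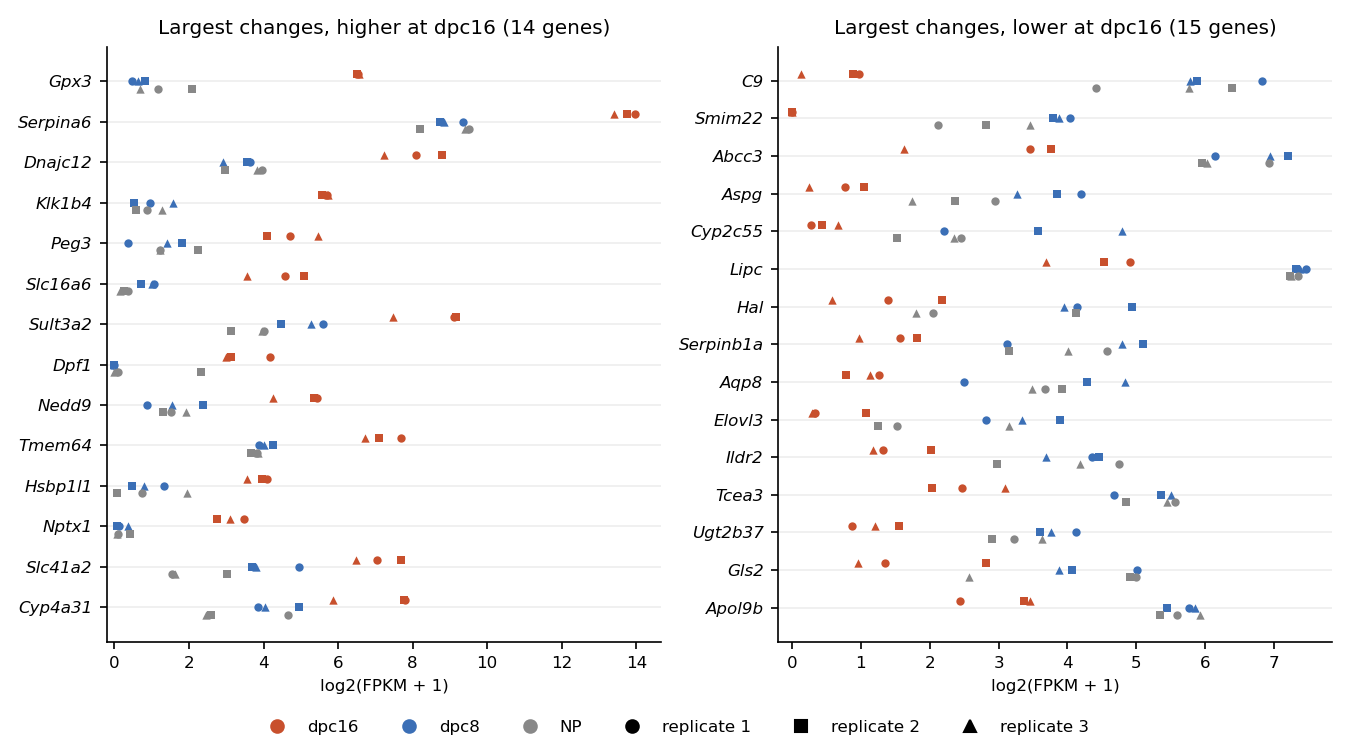
Log2(FPKM + 1) in each zone 3 library (x axis) for genes with the largest rise (left, 14 genes) and the largest fall (right, 15 genes) from dpc8 (blue) to dpc16 (red), with NP libraries in grey and replicates 1 to 3 as circles, squares and triangles. The red symbols lie apart from the blue ones in every row, and NP symbols lie mostly near the dpc8 ones.

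Receptors for growth hormone and prolactin were higher at dpc16. Ghr, the growth hormone receptor, was 1908, 1580 and 1110 FPKM at dpc16 and 282, 204 and 237 at dpc8, and Prlr, the receptor of prolactin and of placental lactogens, was 2128, 1930 and 1189 against 629, 460 and 486. The groups did not overlap, and NP values of 249 to 325 for Ghr and 335 to 366 for Prlr lay under the dpc16 values too. The log2 fold change was 2.64 ± 0.33 for Ghr and 1.70 ± 0.38 for Prlr (SE, limma adjusted p = 4.74e-05 and 0.0167). The Prlr call was kept in 2 of the 6 fits without 1 library, where the adjusted p reached 0.0932.

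The remainder of this pathway did not follow its receptors past the threshold. Of 17 measured genes of growth hormone and prolactin signalling, 2 rose (0.812% of all genes), 0 fell (1.08%) and 15 did not pass. The median was -0.27 (-0.11 without dpc16 replicate 3). At an unadjusted p under 0.05, 3 genes were higher and 1 lower, beside 14.2% of all genes in either direction. The signal transducer Stat5b had a log2 fold change of -0.91, the kinase Jak2 of -0.27, and the feedback inhibitors Socs2, Cish and Socs3 of -0.29, -0.63 and -1.25. Igf1, the main growth factor made in response to growth hormone, was 260, 311 and 135 FPKM at dpc16 and 637, 320 and 349 at dpc8, with a log2 fold change of -0.90 that did not pass. Igfbp1, which binds insulin-like growth factors, was 555, 429 and 61.9 FPKM against 97.0, 51.2 and 27.4, and its groups overlapped. A cytokine receptor outside the list, Lifr, was 2595, 2320 and 1480 FPKM at dpc16 against 771, 304 and 398 (2.19, limma adjusted p = 0.0184). Lifr was named after its values were seen.

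Prolactin and growth hormone act through STAT5, which binds the palindrome TTCNNNGAA, known as the GAS motif. The 250 bases before the start of 3 changed genes that hold this motif are shown because the genes are a receptor (Prlr), a plasma protein that rose (Itih4) and a bile acid importer that fell (Slc10a1). The sequences are those of RefSeq on GRCm38.p6, 5′ to 3′ on the strand of the gene, with the motif in capitals.
Prlr, an internal start, chr15:10223656-10223905, plus strand: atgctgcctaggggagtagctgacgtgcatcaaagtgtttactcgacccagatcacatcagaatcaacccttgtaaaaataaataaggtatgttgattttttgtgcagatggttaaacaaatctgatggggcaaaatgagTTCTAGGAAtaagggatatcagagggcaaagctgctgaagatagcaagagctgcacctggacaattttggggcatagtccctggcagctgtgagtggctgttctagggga
Itih4, chr14:30886226-30886475, plus strand: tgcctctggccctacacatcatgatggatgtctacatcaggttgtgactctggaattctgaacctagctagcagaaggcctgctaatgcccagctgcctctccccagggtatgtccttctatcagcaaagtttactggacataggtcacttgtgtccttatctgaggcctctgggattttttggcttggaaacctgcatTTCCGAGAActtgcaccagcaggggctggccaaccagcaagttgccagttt
Slc10a1, chr12:80968706-80968955, minus strand: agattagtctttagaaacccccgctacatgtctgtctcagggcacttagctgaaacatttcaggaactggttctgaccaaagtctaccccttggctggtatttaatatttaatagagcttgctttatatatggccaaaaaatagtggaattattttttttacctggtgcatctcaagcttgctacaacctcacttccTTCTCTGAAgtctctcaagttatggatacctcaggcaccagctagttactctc
The motif began 110 bases before the start in Prlr, 51 in Itih4 and 53 in Slc10a1. The windows of the other Prlr starts, from 10176988 and 10293401 on chromosome 15, held no such motif. Promoters were matched by symbol for 66 of the 89 higher and 101 of the 118 lower genes. In windows from 250 bases before to 50 bases after the start, the motif stood in 6.06% of the higher genes and 9.90% of the lower genes, beside 8.33% of the genes tested and 9.55% of all genes in the table of promoters. A match is only a match of letters.

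Plasma proteins made by the liver changed in both directions. Of 24 carriers and lipoproteins, 2 rose (0.812% of all genes), 1 fell (1.08%) and 21 did not pass. The median was 0.20, and 0.65 without dpc16 replicate 3. Alb was 137739, 126695 and 54993 FPKM at dpc16 and 27632, 26025 and 26297 at dpc8. The groups lay apart with replicate 3 lowest at dpc16, and the log2 fold change of 1.89 passed narrowly (limma adjusted p = 0.0470), in 1 of 6 fits that left out 1 library. Because Alb is at the top of every library, quantile normalization sets it equal in all of them. Apoc2, the activator of lipoprotein lipase, was 1112, 1106 and 630 FPKM against 123.3, 142 and 141 (2.75, adjusted p = 0.000115). It lay 7.01-fold higher by the means.

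Lipc, the hepatic lipase that acts on lipoproteins in the sinusoid, was 29.2, 22.2 and 11.9 FPKM at dpc16 and 176, 159 and 166 at dpc8. NP libraries were at 149 to 162, close to dpc8, and the fall was 7.93-fold with a log2 fold change of -3.01 ± 0.35 (SE, limma adjusted p = 2.11e-05). Apoa1, the main protein of high-density lipoprotein, was 11242, 11755 and 4625 FPKM against 1980, 3242 and 2885, and Ttr, the thyroxine carrier, 1342, 1304 and 921 against 2274, 2387 and 2591. Their groups lay apart in opposite directions, but neither passed (adjusted p = 0.0938 and 0.185).

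Cp (ceruloplasmin), the copper-carrying ferroxidase of plasma, was 3462, 3590 and 1750 FPKM at dpc16 and 466, 472 and 559 at dpc8. The log2 fold change was 2.49 ± 0.41 (SE, limma adjusted p = 0.00130), and no dpc16 library came near the dpc8 range. Id1, a target of bone morphogenetic protein signals, was 32.3, 32.9 and 37.8 FPKM against 3.61, 7.73 and 4.41 (2.55, adjusted p = 0.00169), while NP libraries had 14.7, 15.5 and 5.56, the last inside the dpc8 range. Hamp, which encodes the iron hormone hepcidin and is a target of the same signals, was 12.1, 133 and 4.41 FPKM against 307, 429 and 551. Its groups lay apart, but the log2 fold change of -4.30 had an SE of 1.17 and did not pass (adjusted p = 0.0583). Of 18 iron and heme genes 2 rose (0.812% of all genes), 0 fell (1.08%) and 16 did not pass. The median was -0.08, and 0.18 without dpc16 replicate 3.

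Of 26 acute phase genes, Itih4 rose, Orm3 fell and 24 did not pass, beside 0.812% higher and 1.08% lower over all genes. Itih4, an inter-alpha-trypsin inhibitor chain, was 4855, 5674 and 2498 FPKM at dpc16 and 1427, 952 and 1015 at dpc8. Orm3, a minor orosomucoid gene, was 1.04, 5.00 and 0.614 against 9.88, 9.61 and 7.19. The strongest acute phase genes, Saa1 and Saa2, had log2 fold changes of -0.20 and -0.12, and the list had a median of -0.03. This median was 0.49 without dpc16 replicate 3, where Orm3 did not pass (limma adjusted p = 0.168). Over the 6 fits without 1 library each, Itih4 passed in 2 and Orm3 in 1.

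The largest fall was that of C9 (ENSMUSG00000022149.17, chromosome 15, 6445327 to 6498751), the pore-forming last component of complement. Its FPKM was 0.964, 0.844 and 0.0950 at dpc16 and 112, 57.9 and 54.2 at dpc8, with 20.2, 82.8 and 53.5 in NP mice. The dpc16 values lay far under those of both other groups. The fold of the means was 118 and the log2 fold change -5.50 ± 0.64 (SE, limma adjusted p = 2.11e-05). C9 passed the filter only through dpc8, so that a difference was required, and the fold rests on dpc16 values under 1 FPKM. Components of the same complex moved less. C8b and C8a had log2 fold changes of -1.37 and -1.10, C6 of -0.75 and C8g of -0.26, and none of these passed. Of 36 complement and coagulation genes, 0 rose (0.812% of all genes), 2 fell (1.08%) and 34 did not pass. Besides C9, the gene that fell was C1qa, a product of Kupffer cells. When single libraries were omitted in turn, the C1qa call survived 1 of the 6 omissions. It was lost without dpc16 replicate 3 (limma adjusted p = 0.127). The list had a median of -0.22, which was 0.08 without dpc16 replicate 3.

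Other large falls were spread over several functions. Smim22, a small membrane protein, was 15.5, 12.8 and 13.6 FPKM at dpc8 and listed at 0 in all 3 dpc16 libraries, and its call was lost in all 6 fits that left out 1 library. Serpinb1a, an inhibitor of neutrophil elastase, fell by 2.89 on the log2 scale, the water channel Aqp8 by 2.82, Ildr2, a membrane protein linked to lipid handling, by 2.67, and the transcription elongation factor Tcea3 by 2.65. Ildr2 and Tcea3 passed in 6, Serpinb1a in 3 and Aqp8 in 1 of the 6 fits that left out 1 library. Aqp8 was 1.40, 0.718 and 1.19 FPKM against 4.63, 18.6 and 27.7, apart but widely spread at dpc8. Among the genes named here, exons overlap between Elovl3 and Pitx3, Gls2 and Spryd4, Cp and Hps3, Apoc2 and Gm44805, Prlr and Gm21973, and Rdh1 and Rdh16f1, and their values are uncertain to that extent.

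Genes of bile acid handling were lower as far as they changed. Abcc3, which exports conjugated bile acids and glucuronides to the sinusoid, was 10.03, 12.5 and 2.08 FPKM at dpc16 and 69.6, 146 and 122 at dpc8 (-3.81 ± 0.52, SE, limma adjusted p = 0.000124). Slc10a1, the sodium-dependent importer of bile acids known as NTCP, was 152, 146 and 99.3 FPKM against 398, 450 and 502 (-1.77, adjusted p = 0.0196). Neither pair of groups overlapped, and Abcc3 passed in 6 and Slc10a1 in 0 of the 6 fits that left out 1 library. Without dpc16 replicate 3 the Slc10a1 change was -1.58 (adjusted p = 0.0869). The other 17 of the 19 genes measured did not pass, where 1.08% of all genes fell. All 19 had a negative log2 fold change and 12 had groups that lay apart downwards (13.5% of all genes), with a median of -0.98. Cyp7a1, the rate-limiting enzyme of bile acid synthesis, was 48.6, 43.0 and 59.2 FPKM against 134, 114 and 141, and its change of -1.36 on the log2 scale did not pass (adjusted p = 0.437).

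Of 17 genes for uptake transporters of the sinusoid, 0 rose, 2 fell (Slc10a1, with the limit given above, and Slc38a4) and 15 did not pass. The shares over all genes were 0.812% higher and 1.08% lower. Slc38a4, an importer of neutral and cationic amino acids, was 81.9, 106 and 37.1 FPKM at dpc16 and 421, 303 and 257 at dpc8 (-2.20 ± 0.38, SE, limma adjusted p = 0.00187). It passed in all 6 fits that left out 1 library. The organic anion transporters Slco1a4 (-1.73) and Slco1b2 (-1.02) had groups that lay apart but did not pass, and the median of the list was -0.75. Groups lay apart downwards in 8 of the 17 genes, beside 13.5% of all genes. Slc22a2, an organic cation transporter better known from the kidney and not on the list, rose and is described with the zones.

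Few genes for enzymes of phase I and phase II metabolism passed, most of them lower. Of 36 genes of the Cyp2 and Cyp3 families with their regulators, 0 rose (0.812% of all genes), 2 fell (1.08%) and 34 did not pass. The median was -0.60 (-0.33 without dpc16 replicate 3), and groups lay apart downwards in 16, beside 13.5% of all genes. Cyp2c55 was 0.207, 0.351 and 0.587 FPKM at dpc16 against 3.62, 10.9 and 26.7 at dpc8, and Cyp2b13, a cytochrome P450 more abundant in females, was 16.4, 11.005 and 15.1 against 98.2, 71.0 and 88.6. The groups lay apart for both genes, and Cyp2b13 passed in 6 and Cyp2c55 in 2 of 6 fits that left out 1 library. The large Cyp2c29 values were 383, 274 and 250 FPKM against 640, 2307 and 3614, a spread at dpc8 with which the log2 fold change of -2.55 did not pass.

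Of 38 conjugation enzymes 1 rose (0.812% of all genes), 3 fell (1.08%) and 34 did not pass, and the median was -0.74. Groups lay apart downwards in 20 of them and upwards in 2, beside 13.5% and 11.9% of all genes. The sulfotransferase Sult1d1 was 24.6, 30.5 and 17.6 FPKM at dpc16 and 163, 139 and 121 at dpc8 (-2.52, limma adjusted p = 0.00240). The glucuronosyltransferase Ugt2b37 fell by 2.62 and the glutathione transferase Gstt1 by 1.61 on the log2 scale, whereas Sult3a2 rose from 47.4, 21.0 and 37.4 to 548, 575 and 177 FPKM. The Gstt1 call (adjusted p = 0.0496) was lost in all 6 fits that left out 1 library. Cytochrome P450, glucuronosyltransferase and sulfotransferase genes lie in clusters of similar copies, between which the counting could split reads.

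Several portal-side genes were lower in zone 3 at dpc16. Of 16 measured periportal genes 0 rose, 5 fell (Hal, Gls2, Cyp2f2, Hsd17b13 and Pigr) and 11 did not pass. The shares over all genes were 0.812% higher and 1.08% lower. The median was -1.63 beside 0.02 over all genes. Hal, the first enzyme of histidine breakdown, was 1.63, 3.53 and 0.493 FPKM at dpc16 and 16.7, 29.6 and 14.4 at dpc8, and Gls2, the liver glutaminase, was 1.54, 6.02 and 0.935 against 31.2, 15.8 and 13.6. Groups lay apart downwards in 11 of the 16 genes, beside 13.5% of all genes. The fall was not general to the list, since Cyp17a1 was 11.9, 42.2 and 4.64 FPKM against 6.92, 8.57 and 9.12, and Pck1 and G6pc, the gluconeogenic enzymes, had log2 fold changes of 0.04 and -0.03. In zone 1 the median of the same genes was 0.09 and in zone 2 -0.81. Without dpc16 replicate 3, 2 of the 16 genes were lower past the threshold (Hal and Hsd17b13) and the median was -1.20. Without the libraries with Y-linked RNA in any group, 8 were lower and 1 higher. Over the 6 fits without 1 library each, Hal passed in 5, Gls2 and Cyp2f2 in 3, and Hsd17b13 and Pigr in 2. 

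The pericentral genes themselves did not pass, although several were lower at an unadjusted p. Of 20 measured genes limma called 0, with 1 higher and 7 lower at an unadjusted p under 0.05 and a median of -0.43 (-0.23 without dpc16 replicate 3). Over all genes 14.2% had such a p, and groups lay apart downwards in 7 of the 20, beside 13.5% of all genes. Glul had a log2 fold change of -0.25, Cyp2e1 of -0.50, Slc1a2 of 0.88 and Tbx3 of 0.29. Cyp1a2 was 478, 326 and 477 FPKM at dpc16 and 720, 1057 and 1031 at dpc8, and its fall of 1.13 on the log2 scale had an adjusted p of 0.327. Lgr5 and Axin2, targets of the Wnt signal that maintains this zone, had changes of -0.14 and -0.10, and the sign of Axin2 turned in 6 of the 17 alternative fits. Without dpc16 replicate 3, Slc22a3, an organic cation transporter, passed with a rise of 1.53 (limma adjusted p = 0.0215). Without the libraries with Y-linked RNA in any group, 1 of the 20 genes was higher and 2 were lower past the threshold.

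Amino acid breakdown and the urea cycle overlap with the periportal genes. Of 29 genes 0 rose, 1 fell (Gls2) and 28 did not pass, where 1.08% of all genes fell. The median was -0.96 (-0.55 without dpc16 replicate 3), with groups apart downwards in 15 (13.5% of all genes). Cps1, which makes carbamoyl phosphate for urea, was 188, 254 and 66.0 FPKM at dpc16 and 793, 428 and 397 at dpc8, and Ass1, argininosuccinate synthase of the same cycle, was 258, 286 and 99.4 against 940, 512 and 485. Replicate 3 was the lowest value in both, and neither passed (limma adjusted p = 0.0660 and 0.0577). Outside the list, Aspg, an asparaginase, fell from 17.4, 13.4 and 8.65 to 0.709, 1.06 and 0.181 FPKM (-3.09 ± 0.44, SE, limma adjusted p = 0.000188).

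In glucose metabolism, Khk and Pygl fell and the other 23 of 25 genes did not pass, where 1.08% of all genes fell. The median was -0.29 (-0.13 without dpc16 replicate 3). Khk, the ketohexokinase that traps fructose, was 75.7, 75.7 and 82.3 FPKM at dpc16 and 241, 241 and 298 at dpc8 (-1.72, limma adjusted p = 0.0121). Pygl, the liver glycogen phosphorylase, was 51.3, 40.8 and 91.4 against 155, 141 and 251 (-1.59, adjusted p = 0.0419). Both pairs of groups lay apart, and Pygl passed in 1 and Khk in 3 of 6 fits that left out 1 library. Pdk1, a kinase that inhibits pyruvate dehydrogenase, fell by a limma log2 fold change of -2.001, from 109, 110 and 112 to 22.4, 23.4 and 36.3 FPKM, and passed in 1 of these fits. Gys2, the liver glycogen synthase, had a log2 fold change of 0.38.

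Genes that the study followed for glucose handling did not pass in zone 3. The study reported them from whole liver of virus-injected mice, as raised at dpc16 and lower with forced expression of p21. Here microdissected zone 3 of untreated mice is compared between dpc16 and dpc8, which does not repeat that comparison. Sgk1, the serum and glucocorticoid kinase, was 119, 87.0 and 30.8 FPKM at dpc16 and 12.6, 15.5 and 9.83 at dpc8. Its groups lay apart and its log2 fold change was 2.37, with a limma adjusted p of 0.0755 that became 0.0432 without dpc16 replicate 3. It passed in 6 of the 17 other fits, among them that without the libraries with Y-linked RNA in any group (2.94, adjusted p = 0.00180). H6pd, Slc45a3 and Pdk4 had changes of 0.48, 0.23 and -0.70 with overlapping groups, and without dpc16 replicate 3 the change of H6pd was 0.93 (adjusted p = 0.393). Without the libraries with Y-linked RNA in any group H6pd passed (0.93, limma adjusted p = 0.0242). Hmmr, which the study took up as a gene of the portal side at dpc8, was not kept. It had 0.855, 0.326 and 3.84 FPKM at dpc16 and 2.04, 0.491 and 0.121 at dpc8.

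Cell division genes were not called in either direction in zone 3. Of 16 mitotic genes limma called 0, with 0 at an unadjusted p under 0.05, and of 16 S phase genes it called 0, with 0 higher and 2 lower at that level and a median of -0.09 (-0.68 without dpc16 replicate 3). Mki67 was 2.97, 1.39 and 12.3 FPKM at dpc16 and 7.21, 1.33 and 0.924 at dpc8, and the groups overlapped, with the high dpc16 value in replicate 3. The mitotic median was 0.39, and -0.26 without that library. In zones 1 and 2 the median of the same genes was -2.57 and -1.02. Mki67 fell in zone 1 (-3.20, limma adjusted p = 0.00635). Its change in zone 3 minus that in zone 1 was 3.79 ± 0.87 (SE, limma adjusted p = 0.248). By protein staining, the study reported Ki67 in hepatocytes around the central vein at dpc16, with little until dpc8. Cdkn1a, the cell cycle inhibitor p21, was 10.4, 16.2 and 125 FPKM against 2.66, 4.50 and 1.13, and its log2 fold change of 3.05 ± 1.46 (SE) did not pass (limma adjusted p = 0.350), and was 1.996 without dpc16 replicate 3.

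Cholesterol synthesis leaned downwards without a call. Of 20 genes limma called 0, but all 20 had a negative log2 fold change, 16 of them at an unadjusted p under 0.05 (14.2% of all genes, in either direction), and 13 had groups that lay apart downwards (13.5% of all genes). The median was -1.43 beside 0.02 over all genes. Dhcr7, the last enzyme of the pathway, was 19.7, 3.40 and 53.8 FPKM at dpc16 and 219, 83.7 and 110 at dpc8. Hmgcs1, near its start, was 31.9, 18.3 and 78.5 against 115, 96.6 and 256. The groups lay apart for both genes. Without dpc16 replicate 3 the median was -1.97 and 4 genes passed, and without all libraries with Y-linked RNA 8 did. Of 18 lipogenesis genes limma called 0, with 2 higher and 6 lower at an unadjusted p under 0.05 and a median of -0.69 (-0.98 without dpc16 replicate 3), and Elovl3, a fatty acid elongase outside that list, fell from 6.04, 13.9 and 9.14 to 0.266, 1.11 and 0.221 FPKM.

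Genes for folding and secretion of proteins leaned upwards. Of 21 genes of the unfolded protein response and secretion, 1 rose (Manf), 0 fell and 20 did not pass, with 8 higher at an unadjusted p under 0.05 and a median of 0.90. Over all genes 0.812% rose and 14.2% had such a p in either direction. Manf, a secreted factor of the endoplasmic reticulum, was 213, 246 and 136 FPKM at dpc16 against 48.1, 43.5 and 62.4 at dpc8 (1.90, limma adjusted p = 0.0488), and the call was lost in all 6 fits that left out 1 library. Hspa5, the main chaperone of that compartment, was 756, 732 and 326 FPKM against 167, 144 and 206 (adjusted p = 0.0757). In 12 of the 21 genes the groups lay apart upwards, beside 11.9% of all genes. Manf overlaps exons of Dcaf1 and Rbm15b.

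Markers of Kupffer cells, the resident macrophages of the sinusoid, were lower. Of 12 measured markers 0 rose, 4 fell (Cd5l, C1qa, Clec4f and Cd68) and 8 did not pass, all 12 had a negative log2 fold change and 11 had groups that lay apart downwards, with a median of -1.32. Over all genes 1.08% fell and 13.5% lay apart downwards. The summed FPKM of the list was 120, 151 and 74.6 at dpc16 and 314, 370 and 272 at dpc8. Clec4f, the defining lectin of these cells in mice, was 12.3, 12.9 and 9.70 FPKM against 34.6, 45.8 and 36.9, and Cd5l, a secreted macrophage protein, 11.9, 13.4 and 6.45 against 40.8, 56.3 and 36.5. Both lay apart with log2 fold changes of -1.66 and -2.005 (limma adjusted p = 0.0132 and 0.00823). Without dpc16 replicate 3 only Cd68 of the list passed, which it did in none of the other 5 fits without 1 library, the adjusted p-values of Clec4f and Cd5l were 0.0552 and 0.0501, and the median was -1.01. In bulk RNA, fewer cells of a type and less RNA per cell cannot be told apart.

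The other cell types had few calls. Summed FPKM of 14 endothelial markers was 211, 251 and 124 at dpc16 and 298, 206 and 169 at dpc8, with 0 genes called by limma, 0 at an unadjusted p under 0.05 and a median of -0.20 (0.06 without dpc16 replicate 3). Of 9 stellate cell markers 1 fell, beside 1.08% of all genes. This was Lrat, which stores retinol as esters, and it fell from 5.26, 7.41 and 8.38 to 1.63, 1.72 and 0.809 FPKM. The summed FPKM of the stellate list overlapped between groups. Of 11 matrix and smooth muscle genes limma called 0, with 1 higher at an unadjusted p under 0.05, and their median was 1.08 with and -0.31 without dpc16 replicate 3. The biliary list had 1 kept gene of 8 (1.17 with and -0.82 without dpc16 replicate 3), and its marker Krt19 was listed at 0 in dpc16 replicates 1 and 2.

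Genes of antigen presentation and the interferon response were lower in a few members. Of 14 antigen presentation genes 0 rose, 2 fell (Psmb8 and Tapbp) and 12 did not pass, all with negative log2 fold changes and a median of -0.64. Psmb8, a subunit of the immunoproteasome, was 14.8, 19.4 and 14.5 FPKM at dpc16 and 45.1, 36.9 and 40.7 at dpc8. Neither passed without dpc16 replicate 3 (limma adjusted p = 0.116 for Psmb8 and 0.0591 for Tapbp), and over the 6 fits without 1 library each, Psmb8 passed in 0 and Tapbp in 1. Of 18 interferon-responsive genes Gbp3, a guanylate-binding protein, fell and 17 did not pass, with a median of -0.83, and Gbp3 passed in 1 of those 6 fits. Over all genes 1.08% fell. Apol9b, one more gene of this kind, was 4.41, 9.35 and 9.96 FPKM against 53.2, 42.7 and 56.7 (-2.60, limma adjusted p = 0.000167), and it has a close copy, Apol9a. Tapbp overlaps exons of Zbtb22. The Kupffer markers given above moved in the same direction, and their part in these values was not tested.

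**Figure D4:**
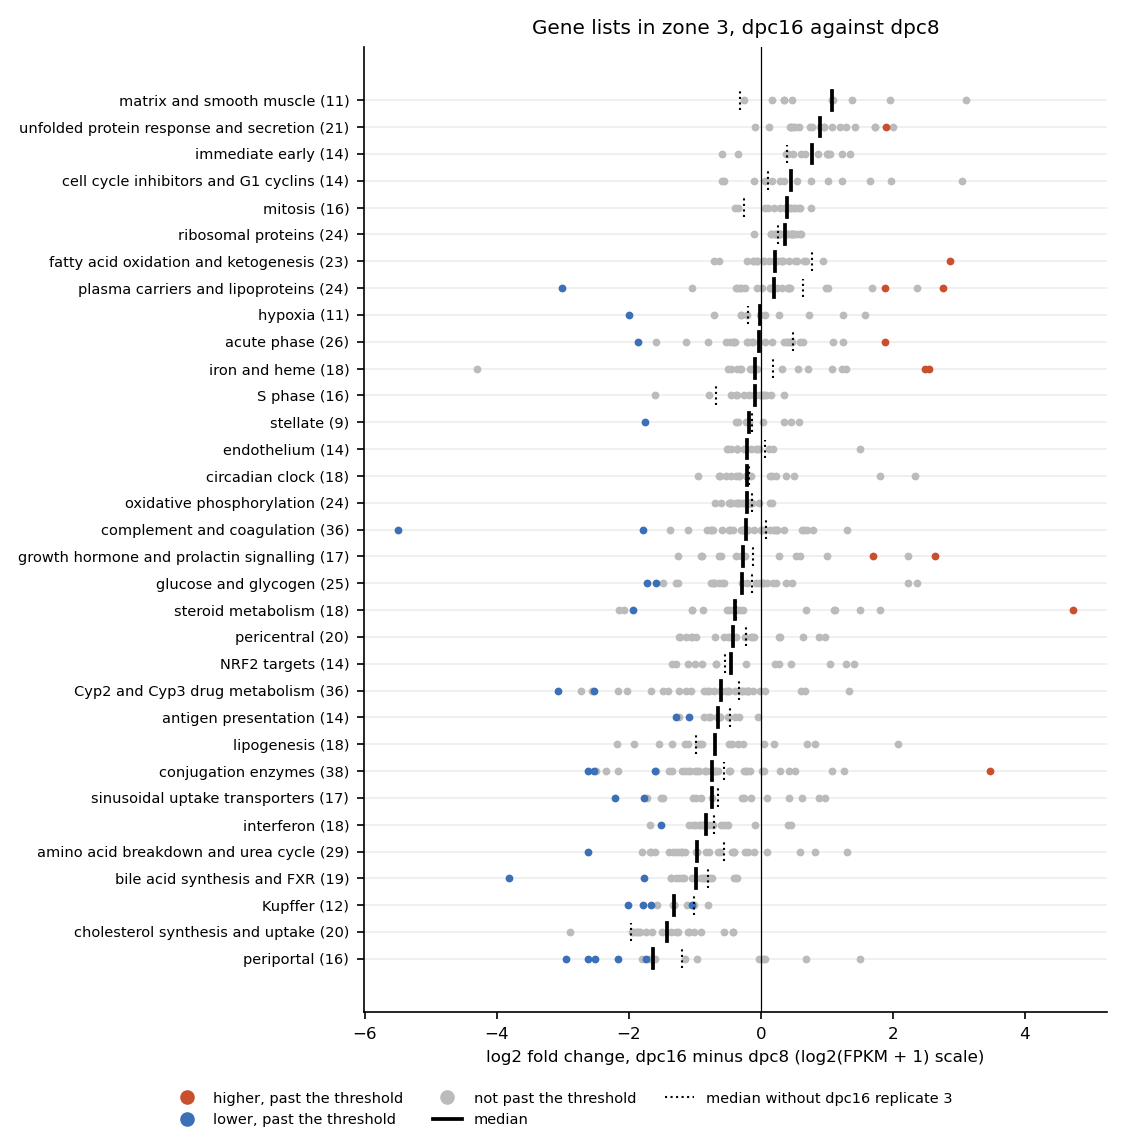
Log2 fold changes of dpc16 minus dpc8 (x axis, log2(FPKM + 1) scale) for the members of each gene list (rows, number of measured genes in brackets), with the median as a solid bar and the median without dpc16 replicate 3 as a dotted bar. Most members are grey (not past the threshold), and the medians run from -1.63 for periportal genes upwards, and the matrix and smooth muscle median of 1.08 is -0.31 without that library.

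Among the remaining lists, fatty acid oxidation and ketogenesis had 1 of 23 genes higher (Cyp4a31) and a median of 0.21 (0.78 without dpc16 replicate 3). Hypoxia had 1 of 11 lower (Pdk1) and a median of -0.01. The shares over all genes were 0.812% higher and 1.08% lower. Limma called 0 genes of the circadian clock (18 genes), the immediate early response (14), targets of NRF2 (14), oxidative phosphorylation (24), ribosomal proteins (24), cell cycle inhibitors and G1 cyclins (14), erythroid cells (6), and lymphocytes and neutrophils (2). At an unadjusted p under 0.05 these lists had between 0 and 4 genes. Their medians lay between -0.89 (erythroid) and 1.23 (lymphocytes and neutrophils), and without dpc16 replicate 3 these were -0.38 and 2.11. In that fit the medians also moved from 0.45 to 0.11 for cell cycle inhibitors and G1 cyclins, from 0.77 to 0.40 for the immediate early response, from -0.21 to -0.13 for oxidative phosphorylation and from -0.01 to -0.19 for hypoxia.

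Zones 1 and 2, which used other libraries of the same stages, allow the change to be compared between areas of the lobule. Of the 89 genes higher in zone 3, 52 (58.4%) were also higher past the threshold in zone 1 and 59 (66.3%) in zone 2, which made up 34.0% and 59.0% of the genes higher in those zones. Of the 118 lower genes, 19 (16.1%) were lower past the threshold in zone 1 and 63 (53.4%) in zone 2, or 26.4% and 56.2% of the genes lower there. The background was 1.40% of genes higher and 0.657% lower in zone 1 and 0.913% and 1.02% in zone 2. The median log2 fold change of the 118 lower genes was -0.79 in zone 1 and -1.41 in zone 2, and of the 89 higher genes 1.66 and 1.53. Since the genes were selected on zone 3, values nearer 0 in other zones are no test of a difference.

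The difference itself was tested as an interaction. The change from dpc8 to dpc16 in zone 3 differed from that in zone 1 for 4 genes (0.0365%), Pnliprp1, Slc22a2, Rdh1 and Cdkn3, and from that in zone 2 for Pnliprp1 (0.00913%). At an unadjusted p under 0.05, 600 (5.48%) and 148 (1.35%) genes differed. When 0.1 in place of 1 was added to the FPKM, or only the groups compared were fitted, 0 genes passed against either zone. Same-numbered libraries of different zones deviated together, with correlations between zone 3 and the others of 0.246 to 0.838 at dpc16, and at dpc8 of 0.311 to 0.393 with zone 2 and 0.0589 to 0.302 with zone 1. With a random block for stage and replicate number, 5 and 2 genes passed, the added gene in both being Cyp2c69, a cytochrome P450 named after its values were seen.

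Pnliprp1, related to pancreatic lipase, was 4.96, 3.16 and 4.33 FPKM at dpc16 and 0, 0.241 and 0.477 at dpc8 in zone 3. It was listed at 0 in all 6 libraries of zone 1 and reached at most 0.259 in zone 2. Slc22a2 was 4.28, 4.07 and 4.58 against 0.169, 0.0319 and 0 in zone 3, 1.40, 1.40 and 0.828 at dpc16 in zone 2 and 0.385, 0.224 and 0.289 in zone 1, and it was listed at 0 at dpc8 in both. Rdh1, a retinol dehydrogenase, was 3.82, 3.08 and 4.12 against 0.145, 0.425 and 0.581 in zone 3, and at most 0.240 in the 6 libraries of zone 1. In zone 2 it rose too (0.83, limma adjusted p = 0.0460), from 0.101, 0.0751 and 0.289 to 1.45, 1.38 and 0.466. These are levels of a few FPKM, and the filter kept the 3 genes only through dpc16, which required at least 1 FPKM in each dpc16 library of zone 3.

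Cdkn3, a phosphatase of cyclin-dependent kinases, had another pattern, since it changed in zone 1 (-2.86, limma adjusted p = 0.000656) and did not pass in zone 3 (0.71, adjusted p = 0.515). In zone 3 it was 3.42, 1.70 and 2.19 FPKM at dpc16 and 2.78, 1.31 and 0 at dpc8, with overlapping groups. In zone 1 it was 7.94, 4.86 and 6.34 at dpc8 and listed at 0 in the 3 dpc16 libraries.

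**Figure D5:**
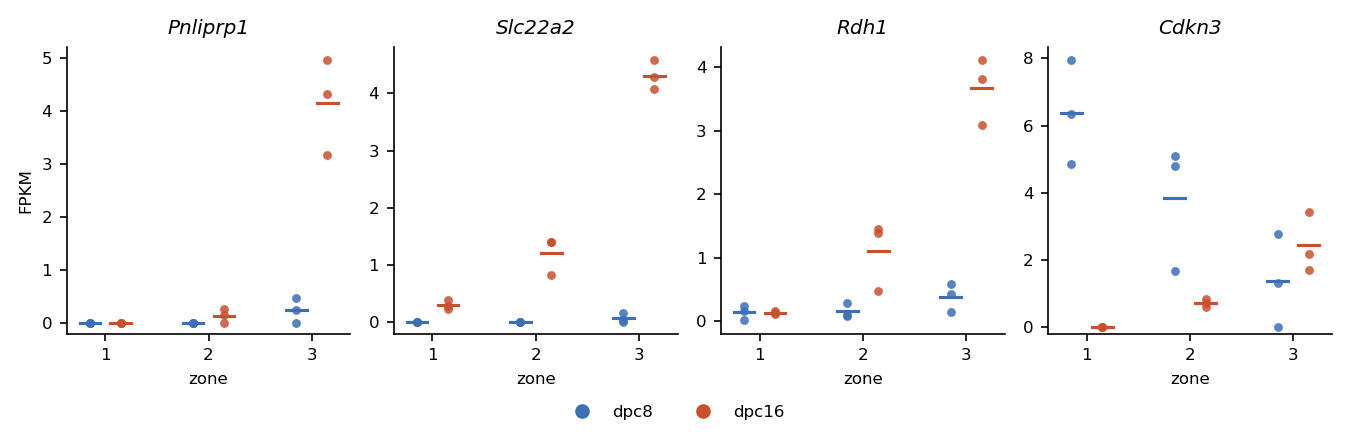
FPKM of the 4 genes whose change from dpc8 (blue) to dpc16 (red) differed between zones, in zones 1, 2 and 3 (x axis). Points are libraries and bars their means, and Pnliprp1, Slc22a2 and Rdh1 are raised in all 3 dpc16 libraries of zone 3, while Cdkn3 falls to 0 in zone 1.

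For other leading genes the zones were not shown to differ. Gpx3 rose by 5.90 on the log2 scale in zone 3, 2.23 in zone 1 and 3.64 in zone 2, and its difference from zone 1 of 3.67 ± 0.84 (SE) had a limma adjusted p of 0.248 and passed in 1 of 11 other fits. Serpina6 rose by 4.73 in zone 3 and 6.98 in zone 1, a difference of -2.24 with an adjusted p of 0.749. Id1 had changes of 2.55 in zone 3 and 0.18 in zone 1 (adjusted p of the difference 0.406), and Clec4f of -1.66 and 0.22 (0.419). The Clec4f difference passed in 2 of 11 other fits, among them that without the libraries with Y-linked RNA (adjusted p = 0.0365). Dnajc12 changed by 4.66 in zone 3 and by 4.70 in zone 1.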

How the data were processed

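RNA of laser-microdissected liver zones was sequenced in 27 libraries, 3 for each of 9 combinations of stage and zone. The deposited values are FPKM per gene, which the authors computed from reads trimmed with cutadapt, aligned to mm10 with HISAT2 2.1.0 and counted with Cuffdiff of Cufflinks 2.2.1, per the labels and the submitters' processing notes. Cuffdiff tests need reads, so limma 3.58.1 in R 4.3.3 was used on log2(FPKM + 1), with an intensity trend, robust moderation and 1 estimate of the spread from all 27 libraries. Genes with 1 FPKM or more in at least 3 of the 6 zone 3 libraries of dpc16 and dpc8 were tested, and p-values were adjusted by Benjamini-Hochberg with a threshold of 0.05. The self-written steps were tested on simulated data. No columns of the table belonged to samples outside the labels.

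Depth was estimated from the steps between low FPKM values, since read counts were not used here. Gene positions came from GENCODE vM21 (mm10), in which 21609 gene IDs of the table were found, and promoter sequences from RefSeq on GRCm38.p6. Overlap of exons was read from the same annotation. The summed FPKM differed between libraries, with 836734, 834568 and 573644 in the zone 3 libraries at dpc16 and 597310 to 629099 at dpc8. The median of the genes tested was 10.4, 10.4 and 11.4 FPKM at dpc16 and 10.2 to 10.5 at dpc8. How the libraries were scaled to each other was not tested.

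The gene lists and the genes to be compared were chosen with earlier results of these data known. The named genes are the 15 largest changes past the threshold in each direction among genes whose groups did not overlap, the members of the lists that passed, examples of each list with its defining member, the genes followed by the study, and those called in the zone comparisons. Other genes were named after their values were seen. One gene under this rule is not reported here. Groups that lie apart are groups of 3 values without overlap. Alternatives were a pseudocount of 0.1, no filter or a filter over all 27 libraries, only the groups compared, quantile and median-ratio scaling, array weights, a replicate block, a connective tissue covariate, leaving out libraries with Y-linked RNA, and leaving out each library in turn.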

Additional observations from a re-analysis of the deposited data

Results flagged for a closer look

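The change from dpc8 to dpc16 differed between zones, by a test of the difference itself, for 4 genes against zone 1 and 1 gene against zone 2. The change in zone 3 minus that in zone 1, on the log2(FPKM + 1) scale, was 3.57 ± 0.62 for Cdkn3, 2.06 ± 0.27 for Pnliprp1, 1.94 ± 0.25 for Slc22a2 and 1.77 ± 0.30 for Rdh1 (SE, limma adjusted p = 0.0253, 0.000691, 0.000691 and 0.0253). For Pnliprp1 the change in zone 3 minus that in zone 2 was 1.88 ± 0.27 (adjusted p = 0.00536). Pnliprp1 and Slc22a2 passed against zone 1 in all 12 fits that left out 1 library, Rdh1 in 3 and Cdkn3 in 2. None of the 5 differences passed with a pseudocount of 0.1 or in the fit of only the groups compared. Without the 6 libraries with Y-linked RNA, Cdkn3 and Rdh1 against zone 1 did not pass (adjusted p = 0.113 and 0.0834), nor did Pnliprp1 against zone 2 (0.331). The filter kept Pnliprp1, Slc22a2 and Rdh1 only through dpc16 in zone 3, where they are high, so that it favoured these differences and the number of fits passed is no independent support.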

How the results depend on the processing

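The 207 genes called between dpc16 and dpc8 in zone 3 became 85 to 153 when 1 library was left out. The counts were 106, 95 and 153 without dpc16 replicates 1, 2 and 3, and 114, 88 and 85 without dpc8 replicates 1, 2 and 3. They were 1504 with array weights, 521 without libraries with Y-linked RNA, 474 with the connective tissue covariate and 465 when scaled without Alb, which was chosen after seeing the data. The cause was not tested. With the other planned settings the count lay between 175 and 286. Same-numbered libraries of the 2 stages did not deviate together (correlations of 0.0326, -0.133 and -0.106, and 0 of 3 best with their own number), and with a replicate block 286 genes passed. The 4 differences from zone 1 became 0 with a pseudocount of 0.1 (589 at an unadjusted p under 0.05) and 0 with only the groups compared (946), 20 with array weights, 9 with the covariate, and 2 to 4 without 1 library. Against zone 2, the single difference became 0 (147) and 0 (192) with the first pair of settings, 3 without a filter, 2 with quantile scaling, array weights, the random replicate block, the covariate or scaling without Alb, and 1 to 2 without 1 library (2 without dpc8 zone 2 replicate 2). The sign turned for some genes that did not pass. Axin2 (-0.10) was 0.20 without the Y-linked libraries, 0.036 with the covariate and -0.56 to 0.20 without 1 library (above 0 without dpc16 replicate 1 or 3 or dpc8 replicate 2 or 3). Without 1 library Cyp17a1 ranged from -0.10 (dpc16 replicate 2 left out) to 1.37 and Slc45a3 from -0.11 (dpc16 replicate 1) to 0.61. Glul was 0.051 with array weights, 0.058 without the Y-linked libraries and -0.55 to 0.058 without 1 library (dpc16 replicate 3), and Mki67 was -0.11 without the Y-linked libraries and -0.11 (dpc16 replicate 3) to 1.24. Of the 62 genes that passed and fell under the naming rule, 16 to 27 lost the call when 1 library was left out.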

Other observations

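Fkbp11, Sec13 and Uso1, genes of the secretory route that were chosen after their values were seen, rose in zone 3 at dpc16. Fkbp11, a prolyl isomerase of the endoplasmic reticulum, was 31.6, 35.4 and 21.0 FPKM at dpc16 and 5.31, 5.44 and 6.36 at dpc8 (log2 fold change 2.15, limma adjusted p = 0.00309). Sec13, a coat protein of export vesicles, was 66.7, 65.6 and 64.2 FPKM against 30.1, 25.1 and 34.5 (1.12, adjusted p = 0.00981), and Uso1, a tether of these vesicles, 43.4, 48.4 and 40.0 against 21.2, 24.6 and 27.9 (0.82, adjusted p = 0.0245). The groups lay apart for each of these genes.

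A few genes for secreted or surface proteins, chosen after their values were seen, are given as examples. Pdgfa, a platelet-derived growth factor, was 13.2, 16.7 and 7.25 FPKM at dpc16 and 0.550, 2.48 and 1.26 at dpc8 (2.47, limma adjusted p = 0.00482). Enpp2, which makes lysophosphatidic acid, was 93.4, 61.0 and 45.0 FPKM against 12.6, 14.4 and 13.04 (2.17, adjusted p = 0.0176). This call was kept in 1 of the 6 fits without 1 library. The tetraspanin Cd9 was 108, 120 and 45.5 FPKM against 16.4, 12.5 and 22.8 (2.26, adjusted p = 0.00518).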
